A study of Mesocricetus auratus with 8 samples.

Results

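The genes described here encode the insulin-like growth factor (IGF) system of Syrian hamster satellite cells (SCs): the ligands Igf1 and Igf2, the receptors Igf1r and Igf2r, and the IGF-binding proteins Igfbp2, Igfbp3, Igfbp4, Igfbp5, Igfbp6 and Igfbp7. They were chosen by gene symbol, and all 10 had values among the 17590 genes with values in the deposited table. Their gene IDs were 101823090 (Igf1), 101824029 (Igf2), 101825606 (Igf1r), 101839699 (Igf2r), 101825051 (Igfbp2), 101838522 (Igfbp3), 101826975 (Igfbp4), 101824785 (Igfbp5), 101838993 (Igfbp6) and 101839936 (Igfbp7). RNA-seq libraries came from wild-type primary SCs of hindlimb muscle of sexually mature male hamsters (Slc:Syrian), enriched by preplating and grown on Matrigel in a medium with fetal bovine serum, chick embryo extract and basic fibroblast growth factor (GM). Both groups were kept at 37°C for 48 h and then for 24 h in GM with HEPES at 37°C. Control libraries (n = 4) were made at that point, before cold exposure, and cold libraries (n = 4) after a further 24 h at 4°C without a change of medium. Cold libraries were therefore also 24 h older, and the effects of cold and of this extra day in the same medium cannot be told apart here.

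IGF1 and IGF2 are secreted peptides that bind the tyrosine kinase receptor IGF1R, which signals through IRS adaptors to PI3K, AKT and mTOR and through SHC and GRB2 to RAS. In muscle these signals drive both growth of myoblasts and their differentiation, and IGF2 made by the differentiating cells themselves acts on the same cells. IGF2R, also the mannose 6-phosphate receptor, takes up IGF2 for breakdown in lysosomes. The binding proteins hold IGFs outside the cell and release them when proteases such as PAPPA or HTRA1 cut them.

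Libraries held from 16530747 to 18533801 expected counts. The myogenic markers were present in all 8 libraries, with Pax7 between 10.8 and 16.1 TPM (transcript abundance scaled for transcript length and library size) and Myod1 between 424 and 693 TPM. Replicates 1 and 2 stood apart from replicates 3 and 4 in both groups along the first principal component, which held 57.7% of the variance. The treatment labels of the 4 controls read 3, 4, 5 and 6 days, whereas their titles all read day 3. Libraries with the same replicate number deviated together, so genes were fitted both without and with a term for the replicate number (the replicate block). The study describes the libraries of each group as biological replicates. What a replicate number marks, such as an animal or a culture, is not given in the sources used here. Without the block, p-values are set against the spread between these libraries. With it, they are set against the spread left after differences between replicate numbers are taken out.

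The 4 most highly expressed members were binding protein genes, and the 2 lowest were binding protein genes too. Compared per transcript length by mean TPM over the 8 libraries, the order was Igfbp3, Igfbp5, Igfbp4, Igfbp7, Igf2r, Igf2, Igf1r, Igf1, Igfbp2 and Igfbp6. Igfbp3 ranked 192 and Igfbp5 ranked 238 of the 17590 genes, whereas Igf1 ranked 10468. Each gene was above the next in 8 of 8 libraries, except that Igfbp2 was above Igfbp6 in 6 of 8. Among genes that kept their order in all 8, Igfbp3 and Igfbp5 lay closest, with a ratio of 1.08 to 1.40 within a library. Of the 2 ligands, Igf2 had 8.53 to 21.7 times the TPM of Igf1. Of the 2 receptors, Igf2r had 9.47 to 12.3 times the TPM of Igf1r, in ranges that overlapped between control and cold libraries.

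**Figure D1:**
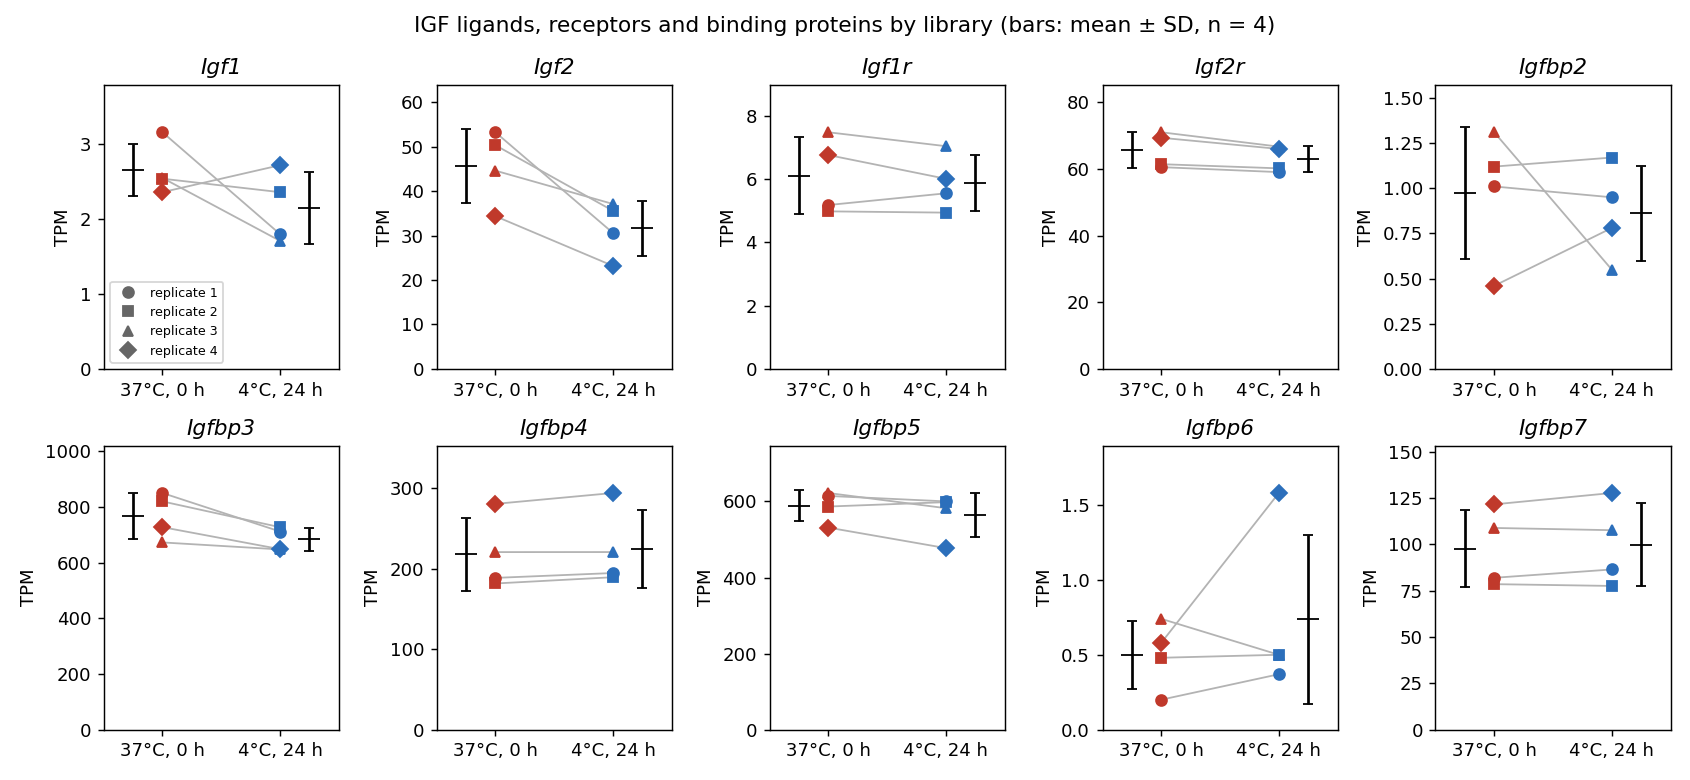
TPM (y axis, linear, from 0) of the 10 genes in each control library (red, 37°C, 0 h) and cold library (blue, 4°C, 24 h). Grey lines join libraries of one replicate number, and black bars give the mean ± SD (n = 4). Cold values of Igf2, Igf2r and Igfbp3 lie below their paired control in 4 of 4 pairs and those of Igfbp4 above it in 4 of 4, while lines of the other genes slope both ways.

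Counts were compared between the 4 cold and 4 control libraries with edgeR's quasi-likelihood test, with p adjusted over the 12506 genes that had enough counts (Benjamini-Hochberg). Of the 10 genes, 9 were tested. Igfbp6 had between 2 and 16 counts per library and was not. Without the block, 0 of the 9 passed an adjusted p of 0.05 and 1, Igf2, had an unadjusted p below it. In this edgeR fit 0.072% of all tested genes passed, and 0.04% passed with a log2 change of 1 or more as well. DESeq2 without the block called 0 of the 10 members and 1.05% of the 13419 genes to which it gave an adjusted p. With the replicate block, 2 of the 9 fell, Igf2 and Igfbp3, and 0 rose, against 4.07% of all tested genes lower and 1.26% higher. DESeq2 with the block called the same 2 members lower, against 2.37% of the 13420 genes with an adjusted p lower and 0.283% higher. With a log2 change of 1 or more required as well, 0 of the 9 passed in either fit, against 0.848% of all tested genes with the block.

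Igf2, the ligand that differentiating myoblasts make, had the largest log2 fold change of the 9 tested members. Its TPM was 53.3, 50.3, 44.6 and 34.4 in control replicates 1 to 4 and 30.6, 35.6, 37.1 and 23.2 in cold replicates 1 to 4. Cold replicates 2 and 3 were above control replicate 4, so the groups overlapped. In each pair of one number the cold library was lower, with differences of -42.6%, -29.3%, -16.8% and -32.5%. The mean went from 45.7 ± 8.33 to 31.6 ± 6.28 TPM (SD, 4 libraries a group; exact two-sided permutation test, p = 0.0857, where 4 against 4 libraries cannot go below 0.0286). From counts, edgeR gave a log2 fold change of -0.55 ± 0.18 (SE, adjusted p = 0.503) without the block and of -0.55 ± 0.066 (SE, adjusted p = 1.29e-05) with it. DESeq2 gave an adjusted p of 0.175 without and 3.23e-08 with the block. In a bulk sample, fewer cells that express a gene and less of its RNA per cell cannot be told apart.

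In replicates 1 and 2 alone the log2 fold change of Igf2 was -0.71 and in replicates 3 and 4 alone it was -0.38. These sides of the first component were taken from the data, so the values are a description, and the difference between them was not tested. With the block, Igf2 passed whichever replicate number was left out, with a log2 fold change of -0.45 without replicate 1 and -0.65 without replicate 3 at the ends of the range.

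Igf1, the other ligand, had 20 to 39 counts per library. Its TPM was 3.16, 2.54, 2.55 and 2.36 in control replicates 1 to 4 and 1.80, 2.36, 1.71 and 2.72 in cold replicates 1 to 4. The groups overlapped in TPM, and cold replicate 4 went against the other 3 pairs. TPM and counts of Igf1 did not always move together. In replicate 3 TPM went from 2.55 to 1.71, whereas the counts were 20 in control and 21 in cold. Scaled for library size, these counts were 1.187 and 1.182. The log2 fold change was -0.20 with a 95% interval from -0.78 to 0.39 (edgeR without the block, adjusted p = 0.999), which includes a decrease as large as that of Igf2. Single libraries moved this value, to -0.046 without control replicate 1, -0.090 without control replicate 2, -0.089 without cold replicate 3 and -0.35 without control replicate 3, and it passed in none of these fits.

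Igf1r, the signalling receptor, had 5.18, 4.98, 7.48 and 6.76 TPM in control replicates 1 to 4 and 5.55, 4.94, 7.04 and 6.01 TPM in cold replicates 1 to 4. It was lower in 3 of 4 pairs, and its log2 fold change was -0.067 (95% interval -0.36 to 0.22, edgeR adjusted p = 0.999) without the block and -0.065 (-0.17 to 0.038, edgeR adjusted p = 0.539) with it. Single libraries moved the value of Igf1r in the fit without the block. It was 0.027 without control replicate 3, -0.0048 without cold replicate 2 and -0.16 without cold replicate 3. Igf2r had 60.5, 61.4, 71.0 and 69.3 TPM in control replicates 1 to 4 and 59.0, 60.1, 66.7 and 66.0 TPM in cold replicates 1 to 4. For both receptors replicates 3 and 4 were the high ones in each group, and the groups overlapped. Igf2r was lower in 4 of 4 pairs, by small steps, with pair differences between -2.04% and -6.07%. Its log2 fold change was -0.076 in both fits. The 95% interval was -0.19 to 0.043 without the block (edgeR adjusted p = 0.954) and -0.15 to -0.0046 with it (edgeR adjusted p = 0.239), so it passed in neither.

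**Figure D2:**
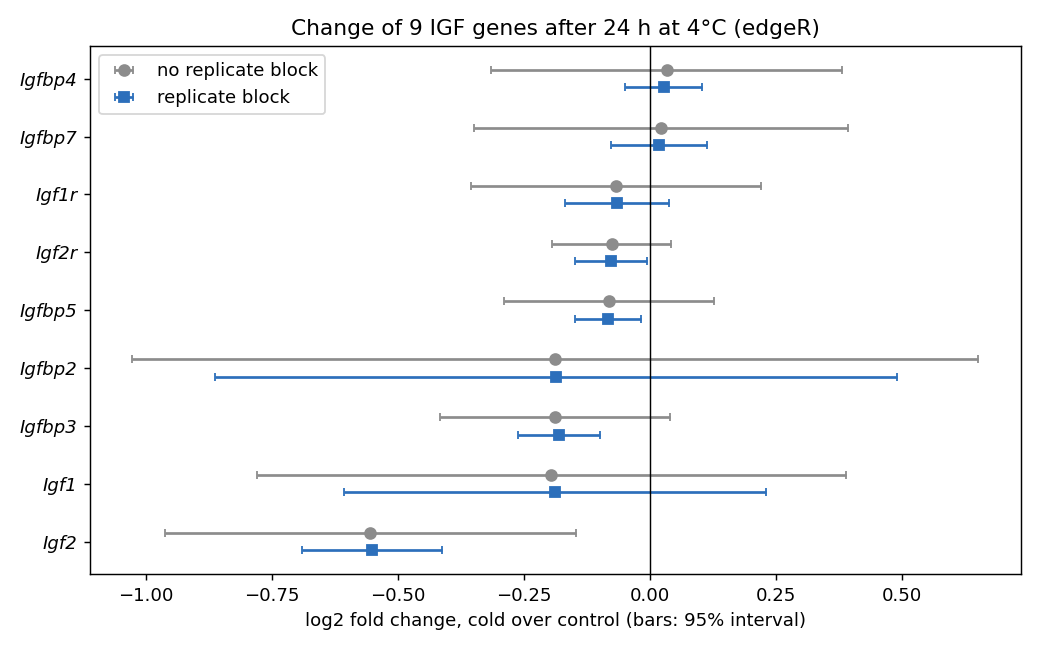
Log2 fold change of cold over control (x axis) for the 9 tested genes in edgeR without (grey circles) and with the replicate block (blue squares), with 95% intervals as bars. Both fits centre on nearly the same values and the block narrows the bars, and Igf2 lies furthest from 0 at -0.55.

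Igfbp3, the most abundant member and the main carrier of IGFs in serum, had 851, 820, 673 and 728 TPM in control replicates 1 to 4. In cold replicates 1 to 4 it had 712, 728, 648 and 649 TPM. Control replicates 1 and 2 were the highest, and control replicate 3 fell within the cold range. All 4 pairs were lower, with differences of -16.3%, -11.3%, -3.73% and -10.9%. The mean went from 768 ± 82.1 to 684 ± 41.8 TPM (SD, 4 libraries a group; exact two-sided permutation test, p = 0.114). In edgeR the log2 fold change was -0.19 ± 0.10 (SE, adjusted p = 0.866) without the block. With the block it was -0.18 ± 0.038 (SE, adjusted p = 0.00684), or -11.7% with a 95% interval from -16.5% to -6.65%.

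With the block and 1 replicate number left out, the log2 fold change of Igfbp3 stayed between -0.14 and -0.22. The adjusted p in edgeR was 0.0556 without replicate 1 (log2 fold change -0.14) and 0.0604 without replicate 2 (-0.17), just above the threshold, and the gene passed without replicate 3 or 4. Without the block, leaving out control replicate 1 moved the value from -0.19 to -0.12. Leaving out control replicate 3, control replicate 4 or cold replicate 2 moved it the other way, to -0.26, -0.23 and -0.23. On the same 2 sides the log2 fold change was -0.27 in replicates 1 and 2 and -0.097 in replicates 3 and 4, again as a description with the difference not tested.

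Igfbp5, a matrix-binding member that myoblasts make as they differentiate, was nearly as abundant as Igfbp3. Its TPM was 615, 587, 622 and 531 in control replicates 1 to 4 and 600, 598, 582 and 477 in cold replicates 1 to 4. Replicate 4 was the lowest in both groups, and the groups overlapped. In edgeR the log2 fold change was -0.081 (95% interval -0.29 to 0.13, adjusted p = 0.999) without the block and -0.083 (-0.15 to -0.017, adjusted p = 0.150) with it. Without cold replicate 4, the fit without the block gave -0.0087 in place of -0.081. The same fit moved the other way without control replicate 4 (-0.15) and without cold replicate 2 (-0.12).

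Igfbp4, an inhibitor of IGF action that PAPPA cleaves, was at 189, 182, 221 and 281 TPM in control replicates 1 to 4 and at 195, 190, 221 and 294 TPM in cold replicates 1 to 4. Its TPM was higher in 4 of 4 pairs, by 0.0272% to 4.82%, which was less than the spread within either group. The log2 fold change was 0.034 (95% interval -0.31 to 0.38, edgeR adjusted p = 0.999) without the block and 0.028 (-0.049 to 0.10, edgeR adjusted p = 0.755) with it. No direction could be read from it, since it was 0.00058 with the block when replicate 4 was left out and -0.12 without the block when cold replicate 4 was. Igfbp7, which binds IGFs only weakly and is a matrix protein of vessels and stroma, had 81.9, 78.5, 109 and 122 TPM in control replicates 1 to 4 and 86.4, 77.5, 108 and 128 TPM in cold replicates 1 to 4. The groups overlapped almost wholly. The log2 fold change was 0.022 (95% interval -0.35 to 0.39, edgeR adjusted p = 0.999) without the block and 0.018 (-0.078 to 0.11, edgeR adjusted p = 0.887) with it, and -0.12 without the block when cold replicate 4 was left out.

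Igfbp2 and Igfbp6 were near the limit of detection. Igfbp2 had 6 to 16 counts per library and a log2 fold change of -0.19 with an interval from -1.03 to 0.65 (edgeR without the block), so moderate changes in either direction were not detectable at this depth. The value was -0.44 without control replicate 4 and -0.022 without cold replicate 3. Igfbp6, which prefers IGF2 over IGF1, had 2, 5, 7 and 6 counts in control replicates 1 to 4 and 4, 5, 5 and 16 counts in cold replicates 1 to 4. The 95% exact Poisson interval of cold replicate 4, which covers counting error only, was 9.15 to 26.0 counts. It lay above that of control replicate 1 (0.242 to 7.23) and overlapped those of the other 3 controls.

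Over the 10 genes, 0 had TPM values that did not overlap between the groups, where 2.41% of all tested genes lay wholly lower and 2.27% wholly higher in the cold. In TPM, 3 of the 10 (Igf2, Igf2r and Igfbp3) were lower in 4 of 4 pairs, where 10.5% of all tested genes were. Igfbp4 alone was higher in TPM in 4 of 4, where 12.8% were. Pair directions depended on the measure. In counts scaled for library size, Igfbp5 was lower in 4 of 4 pairs as well. On that scale Igfbp4 was slightly lower in replicates 1 (247.6 to 246.7) and 3 (271.3 to 270.7) and higher in replicates 2 and 4.

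The summed TPM of the 6 binding protein genes was 1737, 1669, 1627 and 1662 in control replicates 1 to 4 and 1595, 1595, 1560 and 1551 in cold replicates 1 to 4. All cold sums lay below all control sums, and the difference in mean TPM came mostly from Igfbp3. The exact two-sided permutation test gave p = 0.0286, the lowest that 4 against 4 libraries can give. None of the 6 genes separated the groups alone. The sum was the only one of the shares, ratios and sums compared that did not overlap. How often sums of other genes separate in this way was not tested. Igfbp3, Igfbp4 and Igfbp5 made up between 91.6% and 95.2% of the sum in every library. The share of Igfbp3 was 45.8% ± 3.88 in control and 43.4% ± 2.04 in cold libraries and that of Igfbp4 was 13.1% ± 2.85 and 14.3% ± 3.27 (SD, 4 libraries a group). The share of Igfbp3 was lower in 3 of 4 pairs, that of Igfbp4 and that of Igfbp7 were higher in 4 of 4, and all 3 shares overlapped between the groups. For each 1000 TPM of binding protein transcripts there were 20.7 to 30.7 TPM of Igf2 in control and 14.96 to 23.8 in cold libraries. This ratio was lower in 4 of 4 pairs, and the groups overlapped.

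**Figure D3:**
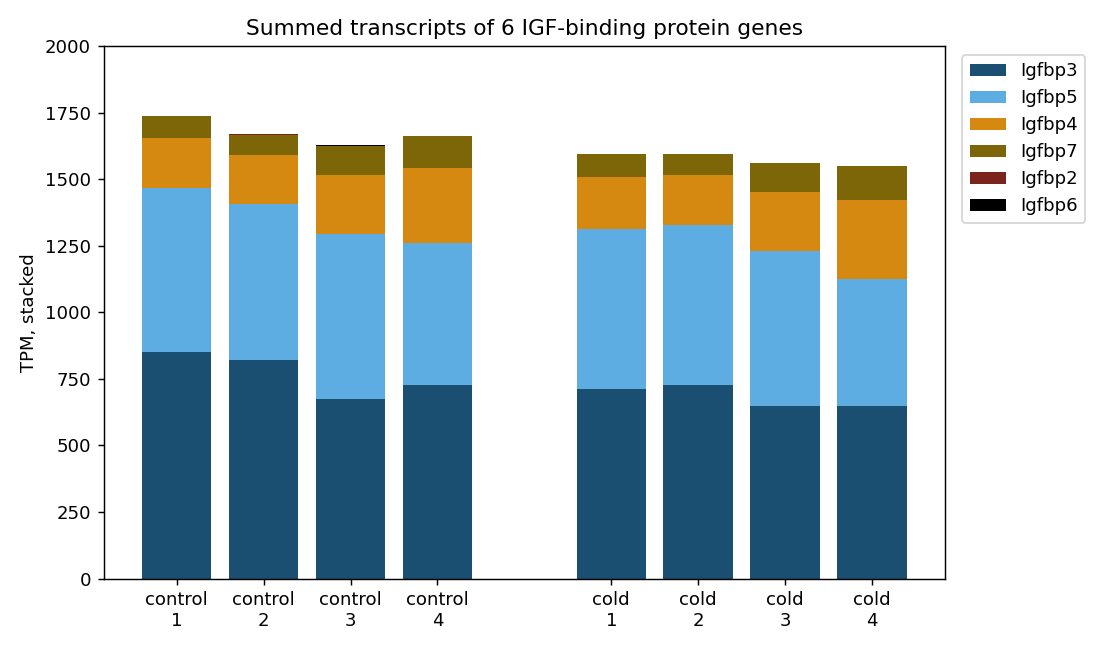
TPM (y axis, linear, from 0) of the 6 binding protein genes stacked for each of the 8 libraries. The sum lies between 1627 and 1737 in control and between 1551 and 1595 in cold libraries, and Igfbp2 and Igfbp6 are at most a hairline at the top.

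Apart from the cold, several members differed between replicates 1 and 2 and replicates 3 and 4. The difference was of like size in both groups for Igfbp7, Igfbp4 and Igf2r. Mean Igfbp7 was 1.44 times as high in replicates 3 and 4 as in replicates 1 and 2 in control libraries and 1.44 times in cold libraries. The same ratio was 1.35 and 1.34 for Igfbp4 and 1.15 and 1.11 for Igf2r. For Igf1r it was 1.40 in control and 1.24 in cold libraries. Igfbp3 went the other way, with ratios of 0.838 in control and 0.900 in cold libraries, as did Igf2 with 0.763 and 0.911. The low-count Igf1 had ratios of 0.861 and 1.07, on both sides of 1. These sides were seen in the data and are not groups of the study, so the ratios are a description.

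Markers of cell types and states were read in the same libraries. The list of 6 genes for differentiating myocytes (Myog, Mymk, Mymx, Myh3, Tnnt2 and Actc1) summed to between 4753 and 9076 TPM in control and between 3319 and 5810 TPM in cold libraries, lower in 4 of 4 pairs. With the block 6 of 6 genes fell, where 4.07% of all tested genes did, and without it 0 of 6 passed (edgeR adjusted p from 0.126 to 0.824). Igf2 and this sum were both highest in control replicates 1 and 2 (Igf2 53.3 and 50.3 TPM, sums 8959 and 9076 TPM). Both were lowest in cold replicate 4 (23.2 and 3319 TPM). Within the cold group they differed in order, as Igf2 was highest in replicate 3, where the sum was 3339 TPM, near its lowest. In counts scaled for library size, Igf2 was nearly equal in cold replicates 2 and 3 (52.43 and 52.87). The part of differentiating myocytes in the lower values of Igf2 and Igfbp3 was not tested. The satellite cell and myoblast list, at 1754 to 2160 TPM in control and 1676 to 1981 TPM in cold libraries, was also lower in 4 of 4 pairs. With the block, 3 of its 6 genes fell (Myod1, Cdh15 and Itga7), while Pax7, Myf5 and Des did not pass, and without it 0 of 6 passed. The fibroblast and mesenchymal list, with 9 of 10 genes measured, among them Pdgfra, Col1a1 and Thy1, summed to between 1339 and 1901 TPM in control and between 1315 and 1839 TPM in cold libraries. It was lower in 2 of 4 pairs, and 0 of 9 genes passed with or without the block. Its highest sums were those of replicate 4, where Igfbp4 and Igfbp7 were highest too, and its part in their levels was not tested.

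In lists for other cell types, 0 genes passed with the block. Endothelial markers summed to at most 4.05 TPM, with Kdr at no more than 0.06 TPM, and smooth muscle and pericyte markers to at most 5.93 TPM, with Kcnj8 at 3 counts or fewer. The leukocyte list summed to between 40.9 and 97.2 TPM in control and between 44.1 and 105 TPM in cold libraries, mostly Cd68 and Cd14, and was higher in 4 of 4 pairs. Csf1r was at 2.31 to 4.55 TPM, and Ptprc and Adgre1 had 3 counts or fewer in every library. Schwann cell markers reached at most 3.91 TPM and adipocyte markers at most 1.08 TPM.

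**Figure D4:**
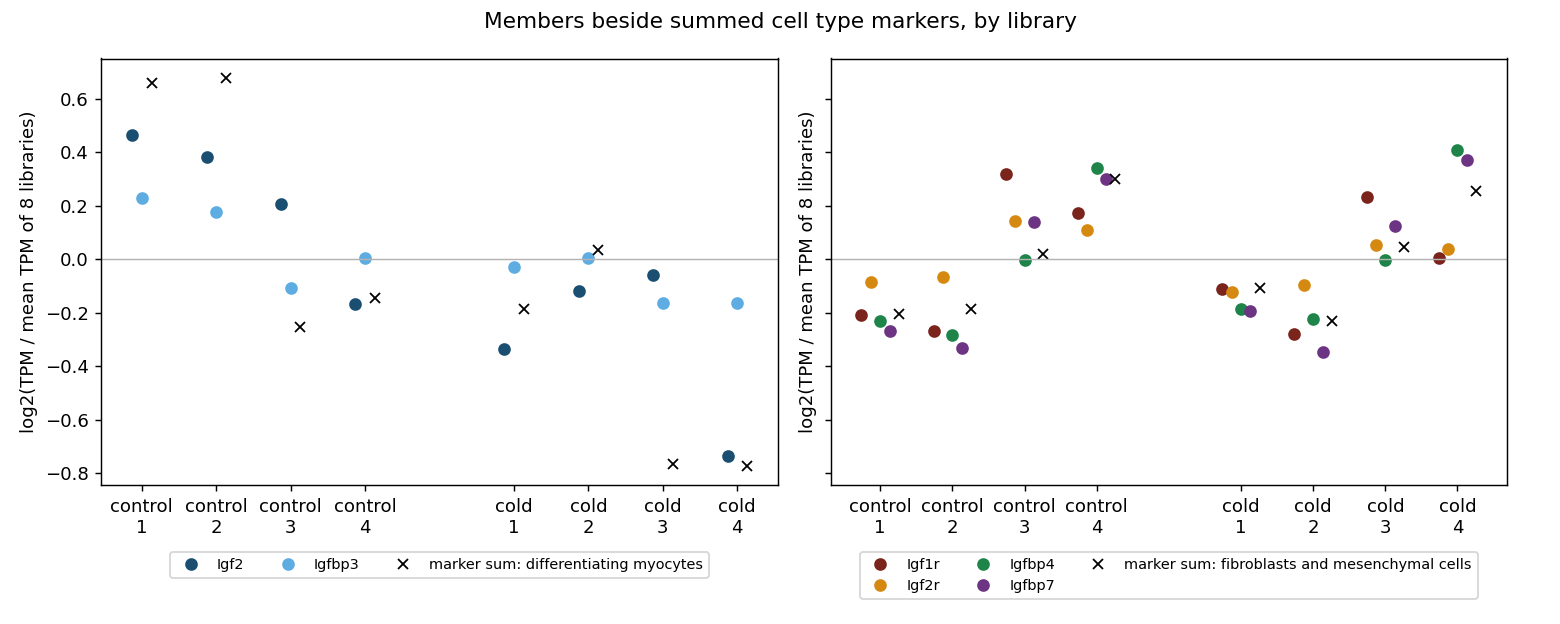
Log2 of TPM over the mean of the 8 libraries (y axis) for Igf2 and Igfbp3 beside the summed markers of differentiating myocytes (left), and for Igf1r, Igf2r, Igfbp4 and Igfbp7 beside the summed fibroblast and mesenchymal markers (right). Points are single libraries and crosses are marker sums. On the right, replicates 3 and 4 lie at or above replicates 1 and 2 in both groups, with little difference between control and cold.

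The genes whose pattern over the 8 libraries was most like that of a member were found by Pearson's r of log2(TPM + 1) over 10493 genes, as a description. The libraries share the condition and the split along the first component, so high values of r are common. For Igf2 they were Shisal1 (r = 0.971) and Castor2 (r = 0.967), the latter a gene of the arginine sensor upstream of mTORC1. For Igfbp3 they were Palld (r = 0.993) and Acta2 (r = 0.992), which encode the actin-binding protein palladin and smooth muscle actin. For Igfbp5 they were Six4 (r = 0.984), a myogenic transcription factor, and Fgfr4 (r = 0.966), a fibroblast growth factor receptor.

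For the members that varied with the replicates, the likest genes were Dpp3 and Hoxa11 for Igf1r, Prickle4 and Rsrp1 for Igf2r, Mmp23b and Abca1 for Igfbp4, and Ddah2 and Col4a2 for Igfbp7, with r between 0.988 and 0.996. Those of Igf1 (Rpl17 and Cdkn2aipnl), Igfbp2 (Setd1b and Rcbtb2) and Igfbp6 (Eif3h and Ctu2) rest on members with at most 39 counts in a library.

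Among 52 other genes of the pathway, from the extracellular proteases to AKT, mTOR and FOXO, 51 had values and 43 were tested. Without the block 0 of the 43 passed with edgeR (1, Akt2, at an unadjusted p under 0.05) and 0 with DESeq2. The log2 fold changes lay between -0.23 and 0.36, with a median of 0.015 against 0.0071 over all genes tested. With the block in edgeR 3 fell and 1 rose. That is 9.30% of those tested, beside the 4.07% lower and 1.26% higher over all genes. DESeq2 with the block gave 45 of these genes an adjusted p and called 2 lower and 0 higher. Of the 4 genes, Grb10 passed in DESeq2 and whichever replicate number was left out. Without the block edgeR gave log2 fold changes of -0.23 ± 0.22 for Grb10, -0.18 ± 0.080 for Akt2, -0.14 ± 0.079 for Inppl1 and 0.17 ± 0.18 for Irs2 (SE, adjusted p from 0.732 to 0.999). Single libraries moved these values. Grb10 was at -0.11 without control replicate 2 and at -0.36 without control replicate 3. Irs2 was at 0.063 without control replicate 1 and at 0.31 without control replicate 4.

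Grb10, an adaptor that binds the IGF1 and insulin receptors and restrains them, had 153, 154, 96.5 and 106 TPM in control replicates 1 to 4 and 129, 136, 88.6 and 90.7 TPM in cold replicates 1 to 4. It was lower in 4 of 4 pairs, and with the block edgeR gave a log2 fold change of -0.22 ± 0.037 (SE, adjusted p = 0.000827). Akt2, a kinase of the insulin and IGF response, went from 150 ± 11.3 to 134 ± 4.87 TPM, and 3 of the 4 cold values lay below every control. With the block its log2 fold change was -0.18 ± 0.043 (SE, edgeR adjusted p = 0.0186). It passed with the block in DESeq2 and did not without replicate 1 (edgeR adjusted p = 0.121) or replicate 2 (edgeR adjusted p = 0.143). Inppl1, a lipid phosphatase that acts on the product of PI3K, went from 82.9 ± 5.13 to 76.5 ± 4.72 TPM, and its log2 fold change was -0.14 ± 0.037 (SE, edgeR with the block, adjusted p = 0.0345). It did not pass in DESeq2 with the block (adjusted p = 0.0588) or in edgeR without replicate 1, 2 or 3 (adjusted p from 0.0534 to 0.198). These means are given with their SD over 4 libraries.

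Irs2, a docking protein of the receptors, was the gene that passed in the other direction. It went from 9.97 ± 2.82 to 11.3 ± 2.22 TPM (SD, 4 libraries a group), higher in 4 of 4 pairs, and with the block edgeR gave a log2 fold change of 0.18 ± 0.050 (SE, adjusted p = 0.0482). It did not pass in DESeq2 with the block (adjusted p = 0.364) or in edgeR without replicate 1, 2 or 3 (adjusted p from 0.115 to 0.334), where the log2 fold change was 0.14 to 0.19. Its values ran from 7.50 to 13.2 TPM among controls, a spread larger than the difference between the groups. Irs1 (19.0 ± 3.24 and 20.3 ± 0.547 TPM), Insr (4.48 ± 0.992 and 4.64 ± 0.850 TPM), Akt1 (316 ± 17.3 and 330.1 ± 18.3 TPM) and Mtor (12.1 ± 1.00 and 12.3 ± 0.527 TPM; control and cold means with SD over 4 libraries) did not pass with either fit.

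The genes that set the release of IGFs from binding proteins did not pass with either fit. The protease Pappa averaged 1.77 ± 0.772 and 1.93 ± 0.580 TPM in control and cold libraries, its inhibitor Stc2 at 42.7 ± 6.05 and 40.3 ± 5.89 TPM, and the protease Htra1 at 132 ± 20.9 and 143 ± 8.88 TPM (SD, 4 libraries a group). Igfbp1 and Igfals, liver genes whose products carry IGFs in serum, had at most 1 count in any library.

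**Figure D5:**
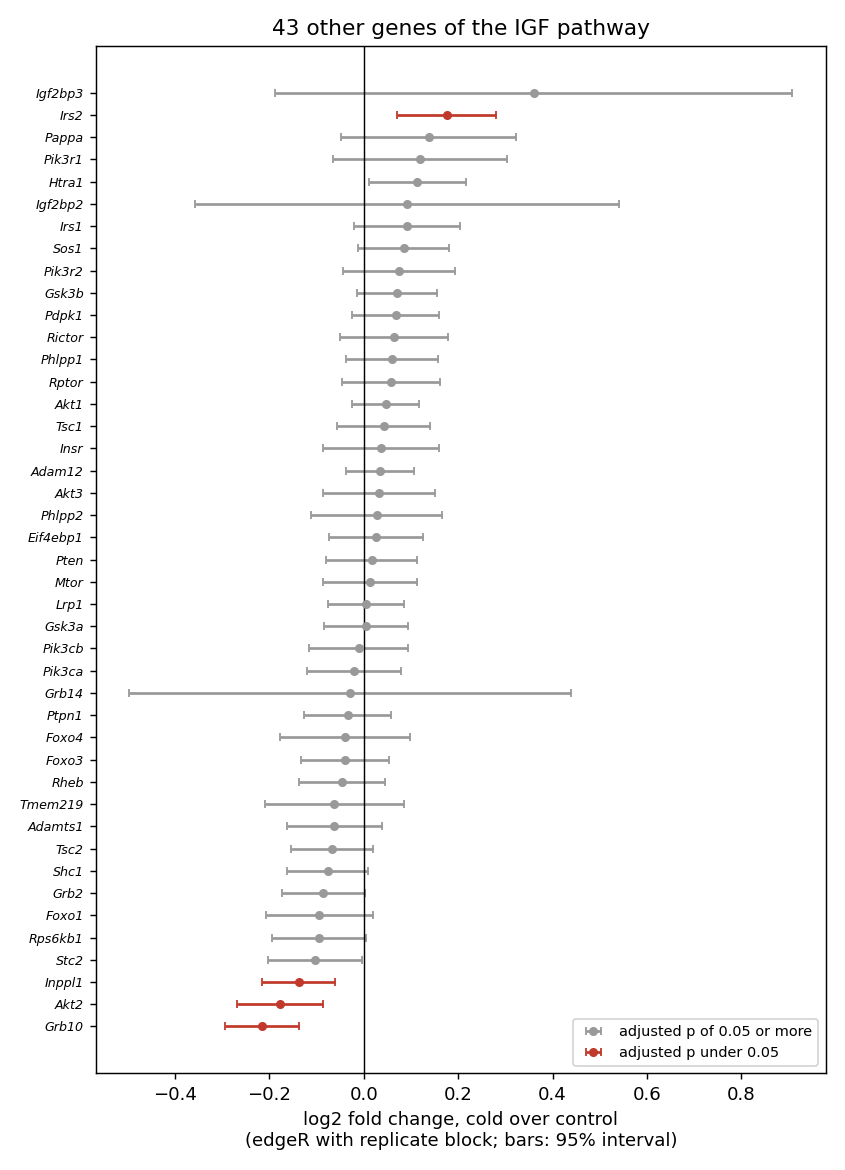
Log2 fold change of cold over control (x axis) for the 43 tested genes of the pathway in edgeR with the replicate block, with 95% intervals as bars, ordered by value. Red marks the 4 genes that passed an adjusted p of 0.05: Grb10, Akt2 and Inppl1 below 0 and Irs2 above it.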

How the data were processed

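Gene expression was measured by RNA-seq of polyA RNA in 8 libraries with paired-end reads of 150 bases. The submitters' processing notes name HISAT and HISAT2, and the counter, build and annotation are not given in the sources used here. Expected counts per gene were deposited without normalization, TPM values were deposited as the authors computed them, and a deposited signal, the read count scaled by 1 factor per library, was not tested. Expected counts were rounded and fitted with edgeR 4.0.16 (TMM, filterByExpr, quasi-likelihood test) in R 4.3.3. Standard errors are the absolute log2 fold change over the square root of F. TPM values of single genes were compared by an exact permutation test over 70 arrangements. Alternatives were DESeq2 1.42.0, RLE factors, library totals, other filters, the replicate block, limma 3.58.1 on log2 TPM with pseudocounts of 1 and 0.1, leaving out each library, and each side of the first component alone. The block with both libraries of a number left out was chosen after seeing the data. Fits were tested on simulated data.

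Deviations from group means correlated across genes at 0.652 to 0.702 for the 4 pairs of one replicate number in the titles and between -0.653 and 0.648 for other pairs (0.447 to 0.648 within a side of the first component), so the numbers were taken to pair the libraries. The members, gene lists and tests were chosen with earlier results of these data known. Named genes are the members, genes of the pathway list that passed in either edgeR fit, the 2 genes most like each member with a mean of at least 1 TPM, and listed markers. Irs1, Insr, Akt1, Mtor, Pappa, Stc2, Htra1, Igfbp1 and Igfals were named after their values were seen. No sequence or coordinate was used here. Figures were drawn with matplotlib 3.10.9.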

Additional observations from a re-analysis of the deposited data

Results flagged for a closer look

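For each gene and group, the gap between the most extreme of the 4 TPM values and its neighbour was set against the range of the 4 (Dixon's test). In 2 of the 20 sets this ratio passed the 95% critical value, where chance gives about 1 in 20. Both were in cold replicate 4. Igfbp5 was at 477 TPM there, below the other cold libraries at 582 to 600 TPM, and control replicate 4 was also the lowest of its group at 531 TPM. Igfbp6 was at 1.58 TPM there, from 16 counts (95% exact Poisson interval 9.15 to 26.0), against 0.37 to 0.50 TPM in the other cold libraries.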

How the results depend on the processing

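Igf2, Igfbp3, Igf2r and Igfbp5 were lower in the cold under all 23 alternatives, with log2 fold changes from -0.71 to -0.38, -0.27 to -0.097, -0.10 to -0.049 and -0.15 to -0.0087. Without the block, Igf2 and Igfbp3 passed in replicates 1 and 2 alone, a side of the first component taken from these data, where the calls are no support, and under no other alternative. Members passing an adjusted p of 0.05 numbered 0 in the fit without the block and 2, both lower, with the replicate block in edgeR, the replicate block in DESeq2 and replicates 1 and 2 only. With the block, 1 passed without replicate 1, 1 without replicate 2, 2 without replicate 3 and 2 without replicate 4. In the same 7 fits the pathway list gave 4, 2, 7, 1, 1, 2 and 5 genes and all genes gave 667, 356, 1442, 394, 356, 574 and 927, against 0 and 9 without the block. All genes also gave 141 with DESeq2, 14 with library totals, 25 with no filter beyond 1 count, 4 with a mean of at least 10 counts, 4 with limma at either pseudocount, 50 in replicates 3 and 4 only, and between 0 and 46 when single libraries were left out, the highest without control replicate 3. The cause of these moves was not tested.

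Direction turned for 5 members under some alternatives. Leaving out single libraries gave log2 fold changes between -0.12 and 0.16 for Igfbp4, between -0.12 and 0.13 for Igfbp7 and between -0.16 and 0.027 for Igf1r. In replicates 1 and 2 only, Igfbp4 was at -0.0047 and Igfbp7 at -0.014, and in replicates 3 and 4 only, Igf1 was at 0.11. With the replicate block, Igfbp2 was at 0.13 without replicate 3 and Igfbp7 at -0.013 without replicate 4. Sign flips within the 4 pairs cannot give a p below 0.125 and so bear on no call. Depth limits Igf1, Igfbp2 and Igfbp6, with at most 39 counts in a library.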
